A study of Homo sapiens with 8 samples.

Results

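The genes described here encode the subunits of the transcription factor NF-kappaB and the proteins that NF-kappaB switches on to limit or tune its own action. They comprise 10 genes. The subunit genes are NFKB1, NFKB2, REL, RELA and RELB. NFKBIA, TNFAIP3 and BIRC3 are grouped here as inhibitor genes, and NFKBIZ and BCL3 encode IkB proteins that act in the nucleus. The name inhibitor genes is only a label for that group. BIRC3 encodes a ubiquitin ligase, and its paralogue BIRC2 is counted below in a mixed group of regulators. The mark mapped was H3K27ac, acetylated lysine 27 of histone H3, which is typical of promoters and enhancers in use. It was measured by ChIP-seq on micrococcal nuclease-digested chromatin of MDA-MB-231 cells, a human line from a triple-negative breast tumour. Control cells, labelled with the genotype control, were compared with cells labelled ARID1A knockout; ARID1A is a subunit of the BAF chromatin remodelling complex. The 8 libraries were 2 immunoprecipitates and 2 inputs per genotype, and no treatment or time point was labelled. The labels did not say how ARID1A was disrupted, whether the knockout was 1 clone or a pool, or whether replicates were separate cultures.

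Peaks were assigned by position alone. A peak was used if it lay within the hg38 RefSeq span of 1 of these genes or within 100 kb of it, and it went to the closest of the 10. This took 82 of 39797 control peaks and 94 of 42552 knockout peaks. In hg38 the subunit genes lie at chr4:102501359-102617302 (NFKB1), chr10:102394110-102402529 (NFKB2), chr2:60881574-60931612 (REL), chr11:65653601-65663857 (RELA) and chr19:45001464-45038192 (RELB). The inhibitor genes lie at chr14:35401513-35404749 (NFKBIA), chr6:137866349-137883312 (TNFAIP3) and chr11:102317484-102339403 (BIRC3), and the nuclear IkB genes at chr3:101827990-101861022 (NFKBIZ) and chr19:44747705-44760044 (BCL3). A peak was called shared if it overlapped a peak of the other genotype by at least 1 bp, and otherwise control-only or knockout-only. Each genotype had 1 peak list, so there was no replicate error, no test of the genotype was possible, and each difference is a difference between these 2 lists. The pileup (height in sequenced fragments) and the fold enrichment over the input background are the authors' values. Their scale differed between lists, with a median pileup of 22.7 in control and 32.0 in knockout, so they are used only to rank peaks within a list. The characteristics name an H3K27ac antibody, but the shared extraction text names H3K4me3; titles and characteristics were followed here. As a check of the cell type, the genes VIM, CD44, AXL, EGFR and CAV1 of a mesenchymal-like breast cancer line each had a peak within 1 kb of a gene end in both lists, and none of 4 blood cell genes did. Of 6 luminal genes, 3 had one in control and 4 in knockout: GATA3, FOXA1 and KRT18 in both lists and ESR1 in knockout only. PGR and CDH1 had none in either. Of a fibroblast and an endothelial gene, COL1A1 had one in both lists and PECAM1 in neither.

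NF-kappaB is a family of dimers that share a Rel homology domain for binding DNA. In resting cells IkB proteins hold most dimers in the cytoplasm; when receptors for TNF, IL-1 or microbial products activate the IKK kinases, IkB is degraded and the dimers enter the nucleus. The dimers bind kappaB sites, also at the genes of their own inhibitors, so that the response limits itself. This cell line is known for constitutive NF-kappaB activity.

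The sequence before the start of most of these genes held a kappaB core, a fact independent of the peaks. RefSeq (GRCh38.p14) gave promoters for 9 of the 10 genes; RELB had no entry. The cores searched, on both strands, were GGNNTTTCC and GGGNNTTCC, and a 9-base stretch can match both. At least 1 match lay in 7 of the 9 promoters, taken from 250 bases before to 50 after the start, against 11.6% of 15812 protein-coding promoters in the same table. The list was drawn up to include genes that NF-kappaB switches on, so this contrast follows in part from the choice of genes. The AP-1 motif TGANTCA matched none of the 9 and 5.76% of all. Every one of the 9 promoters lay wholly inside a peak in both lists. The 250 bases before the start are printed below, 5′ to 3′ on the strand of the gene, for the 3 inhibitor genes, for 1 subunit gene with a match (NFKB1) and for 1 without (RELA); capitals mark the matches.

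NFKBIA, chr14:35404750-35404999, minus strand: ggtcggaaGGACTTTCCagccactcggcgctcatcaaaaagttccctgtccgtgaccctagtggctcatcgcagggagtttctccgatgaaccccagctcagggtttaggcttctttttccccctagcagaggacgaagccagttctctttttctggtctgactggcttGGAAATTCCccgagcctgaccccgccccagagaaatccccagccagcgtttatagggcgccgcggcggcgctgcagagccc
TNFAIP3, chr6:137867009-137867258, plus strand: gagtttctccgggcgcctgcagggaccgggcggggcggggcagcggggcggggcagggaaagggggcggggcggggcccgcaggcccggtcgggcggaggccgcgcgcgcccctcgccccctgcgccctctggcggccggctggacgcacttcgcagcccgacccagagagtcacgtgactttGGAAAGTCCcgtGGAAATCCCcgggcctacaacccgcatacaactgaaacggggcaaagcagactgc
BIRC3, chr11:102317234-102317483, plus strand: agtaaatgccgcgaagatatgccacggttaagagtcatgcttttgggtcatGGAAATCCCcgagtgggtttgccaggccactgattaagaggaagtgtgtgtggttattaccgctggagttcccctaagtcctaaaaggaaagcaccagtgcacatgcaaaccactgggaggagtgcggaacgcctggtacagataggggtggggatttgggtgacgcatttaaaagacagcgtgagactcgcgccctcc
NFKB1, chr4:102501109-102501358, plus strand: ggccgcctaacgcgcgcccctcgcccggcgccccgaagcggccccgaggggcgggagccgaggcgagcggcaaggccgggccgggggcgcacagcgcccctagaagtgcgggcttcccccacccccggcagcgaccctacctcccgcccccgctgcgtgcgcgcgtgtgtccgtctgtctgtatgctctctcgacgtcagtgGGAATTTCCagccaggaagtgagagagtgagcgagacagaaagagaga
RELA, chr11:65663858-65664107, minus strand: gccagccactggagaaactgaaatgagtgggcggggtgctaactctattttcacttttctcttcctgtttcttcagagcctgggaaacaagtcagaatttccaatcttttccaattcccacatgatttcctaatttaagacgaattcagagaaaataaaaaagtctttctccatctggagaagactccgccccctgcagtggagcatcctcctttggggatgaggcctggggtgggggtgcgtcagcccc

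NFKBIA had matches beginning 242 and 81 bases before the start, and TNFAIP3 had 2, at 67 and 55 bases, separated by 3 other letters. Those of BIRC3 and NFKB1 began 199 and 48 bases before it. REL, NFKBIZ and BCL3 had matches at 46, 222 and 105 bases, and BCL3 a second just after its start. NFKB2 and RELA had none, which says only that these letters are not in this window.

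All 10 genes were acetylated at the start in both genotypes. Over all 15812 protein-coding starts of the promoter table, 58.1% were covered by a peak of both lists. For RELB, which has no entry there, the lower-coordinate end of the gene was used as the start. The 10 remained covered in both lists when only peaks with a −log10 q of at least 5 were kept. The plot of pileup at the starts shows the level of each gene within its own list.

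**Figure D1:**
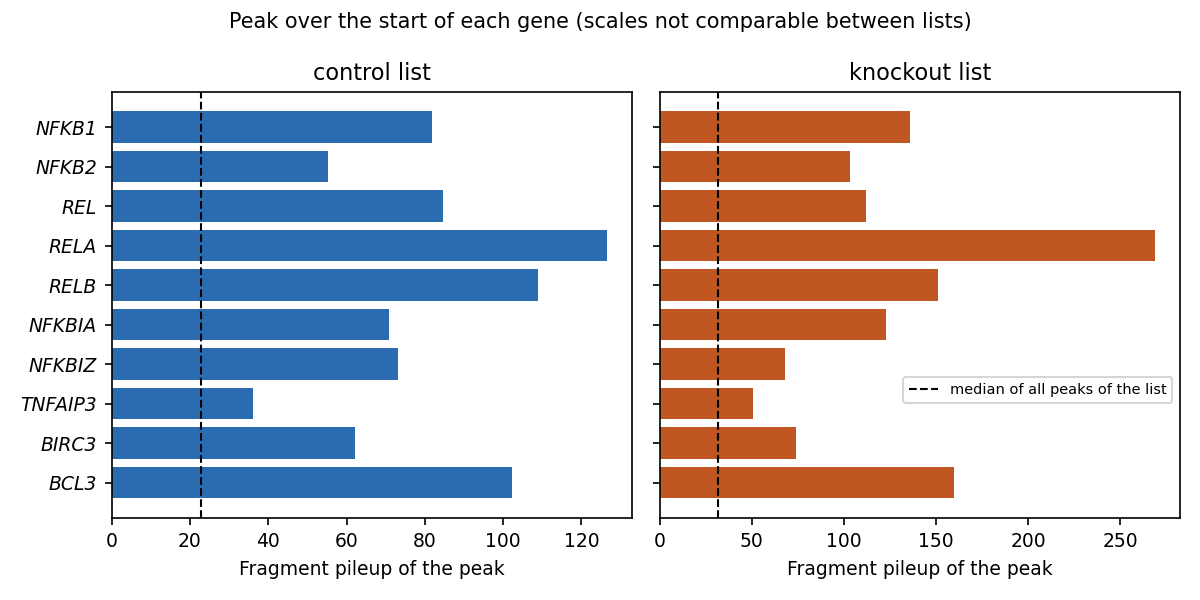
Fragment pileup (horizontal axis, the authors' values) of the peak over the start of each gene in the control list (left) and the knockout list (right), with the median of all peaks of that list as a dashed line. All 10 bars pass the line in both panels; RELA is the highest and TNFAIP3 the lowest in each.

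Among the subunit genes, RELA, which encodes the main activating subunit of the canonical pathway, had the highest start peak of the 10 in both lists. Its peak was 4.51 kb long in control (chr11:65660208-65664719, pileup 126.59) and 3.56 kb in knockout (chr11:65661117-65664679, 268.88), above 99.4% and 99.9% of the peaks of the respective list. RELB, the activating partner of the NFKB2 product, had peaks of 2.24 kb (pileup 109.04) and 2.23 kb (151.34). REL, which encodes c-Rel, a subunit best known from lymphocytes, had peaks of 4.38 kb (84.55) and 4.63 kb (111.83). These 3 genes encode the subunits that carry an activation domain, and their start peaks stood at percentile 90.9 or higher of either list. NFKB1, which encodes the precursor of a DNA-binding subunit without such a domain, had start peaks of 4198 and 3674 bp (chr4:102500192-102504389, pileup 81.76, and chr4:102500318-102503991, 136.17), at percentiles 95.04 and 95.15. NFKB2, the corresponding precursor gene of the non-canonical pathway, stood lower, at percentiles 84.4 (55.25) and 88.9 (103.58).

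The start peaks of the 3 inhibitor genes were longer than those of all 5 subunit genes in both lists. NFKBIA encodes IkB-alpha, which retains dimers in the cytoplasm and is resynthesized after each activation. Its start peak was 9.98 kb long in control (chr14:35397007-35406982, pileup 70.79) and 8.01 kb in knockout (chr14:35399390-35407402, 122.70), longer than the gene itself (3.24 kb). BIRC3, a ubiquitin ligase gene of the inhibitor of apoptosis family, had start peaks of 9.45 kb (62.24) and 7.91 kb (73.89). TNFAIP3 encodes A20, a ubiquitin-editing enzyme that shuts off signalling to IKK. Its start peaks, of 9.92 kb (chr6:137865952-137875871, 36.22) and 9.45 kb (chr6:137866032-137875485, 50.69), were the lowest of the 10 in both lists, at percentiles 68.3 and 66.0.

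The nuclear IkB genes differed from each other. BCL3, whose product binds dimers of the NFKB1 or NFKB2 product on DNA, had the longest peaks of the 10 genes, 18.5 kb in control (chr19:44738709-44757252, pileup 102.24) and 24.8 kb in knockout (chr19:44737683-44762509, 159.93). NFKBIZ encodes IkB-zeta, an inducible co-activator of a subset of targets such as IL6. Its start peak was 3.75 kb long in control (chr3:101826039-101829790, 73.06, percentile 92.8) and 3.68 kb in knockout (chr3:101826012-101829690, 67.89, percentile 75.8). Within the 10 genes it stood above NFKBIA, BIRC3, NFKB2 and TNFAIP3 in control and above TNFAIP3 alone in knockout.

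Around the 10 genes most acetylation was shared, and genotype-only peaks were about as frequent as elsewhere or rarer. Of the 82 control peaks 8 were control-only, which is 9.76% (exact binomial 95% interval 4.31 to 18.3, counting error only), against 18% of all control peaks. Of the 94 knockout peaks 18 were knockout-only, 19.1% (11.8 to 28.6), against 22.4% of all knockout peaks. Among peaks within 100 kb of any protein-coding gene, 17.4% in control and 20.5% in knockout were genotype-only. The knockout share is near the background and its interval holds it, whereas the control share is lower and its interval holds the background only at its upper edge. Overlapping peaks of both lists formed 95 separate acetylated regions, of which 69 were shared.

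**Figure D2:**
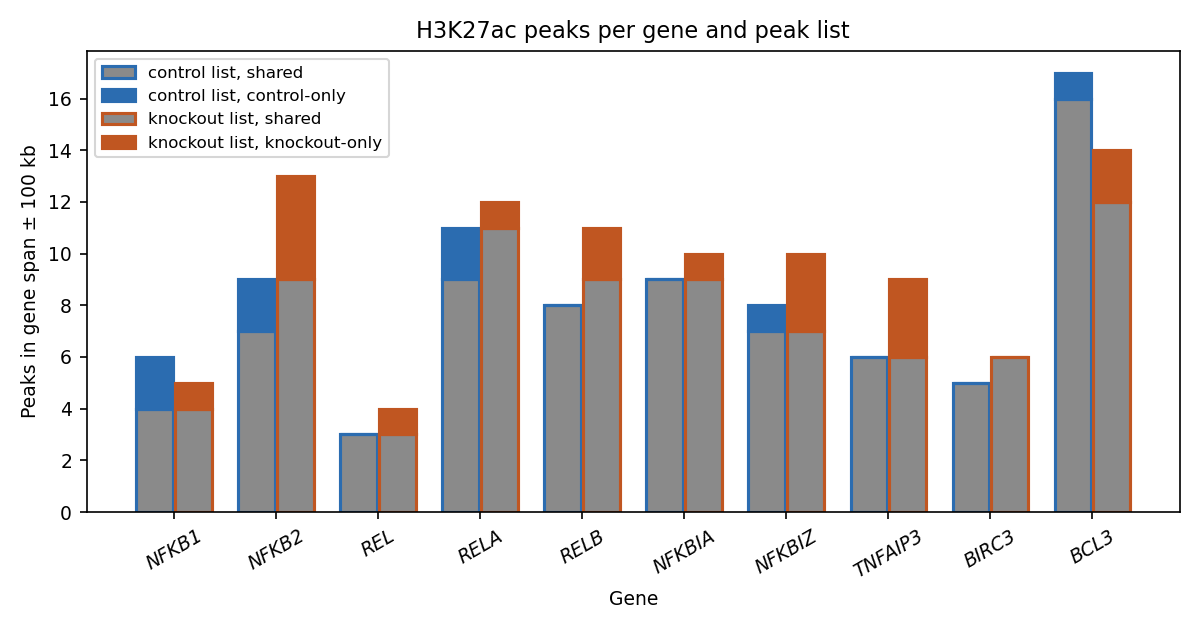
Number of peaks (vertical axis) within the span of each gene and 100 kb either side, with 1 bar for the control list (blue outline) and 1 for the knockout list (orange outline), divided into shared (grey) and genotype-only peaks (filled colour). Genotype-only peaks number from 0 to 2 per gene in control and from 0 to 4 in knockout; BIRC3 has none.

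No genotype-only peak lay at a gene start. In these windows 30 control and 28 knockout peaks covered the start of 1 of the 10 genes or of a neighbour, and all were shared. A count of 0 of 30 allows a share of up to 10% by the limit of 3 counts, and 0 of 28 up to 10.7%, and the exact 95% intervals reach 11.6% and 12.3%; over the whole lists 1.32% and 1.1% of such peaks were genotype-only. Of the peaks covering no start, 8 of 52 control peaks (15.4%, against 22.4% of all such peaks) and 18 of 66 knockout peaks (27.3%, against 27.6%) were genotype-only. Counted by gene, 5 of the 10 had at least 1 control-only peak and 9 had at least 1 knockout-only peak, against 60.9% and 56.8% of 18661 protein-coding genes with any peak in such a window. Knockout-only peaks outnumbered control-only peaks at 7 of the 10 genes (33.4% of all genes) and were fewer at 2 (38.6%). The windows of the 10 genes held more peaks, with medians of 8 in control and 10 in knockout, against 6 and 7 over all genes. A window with more peaks can more easily hold a genotype-only peak, so these counts by gene are not on an equal footing. The counts depended on the window. Within 10 kb of the genes there were 4 control-only and 2 knockout-only peaks. Among peaks whose nearest protein-coding gene was 1 of the 10 there were 5 and 6. No background share was computed for these settings, so the counts describe the 10 genes only.

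**Figure D3:**
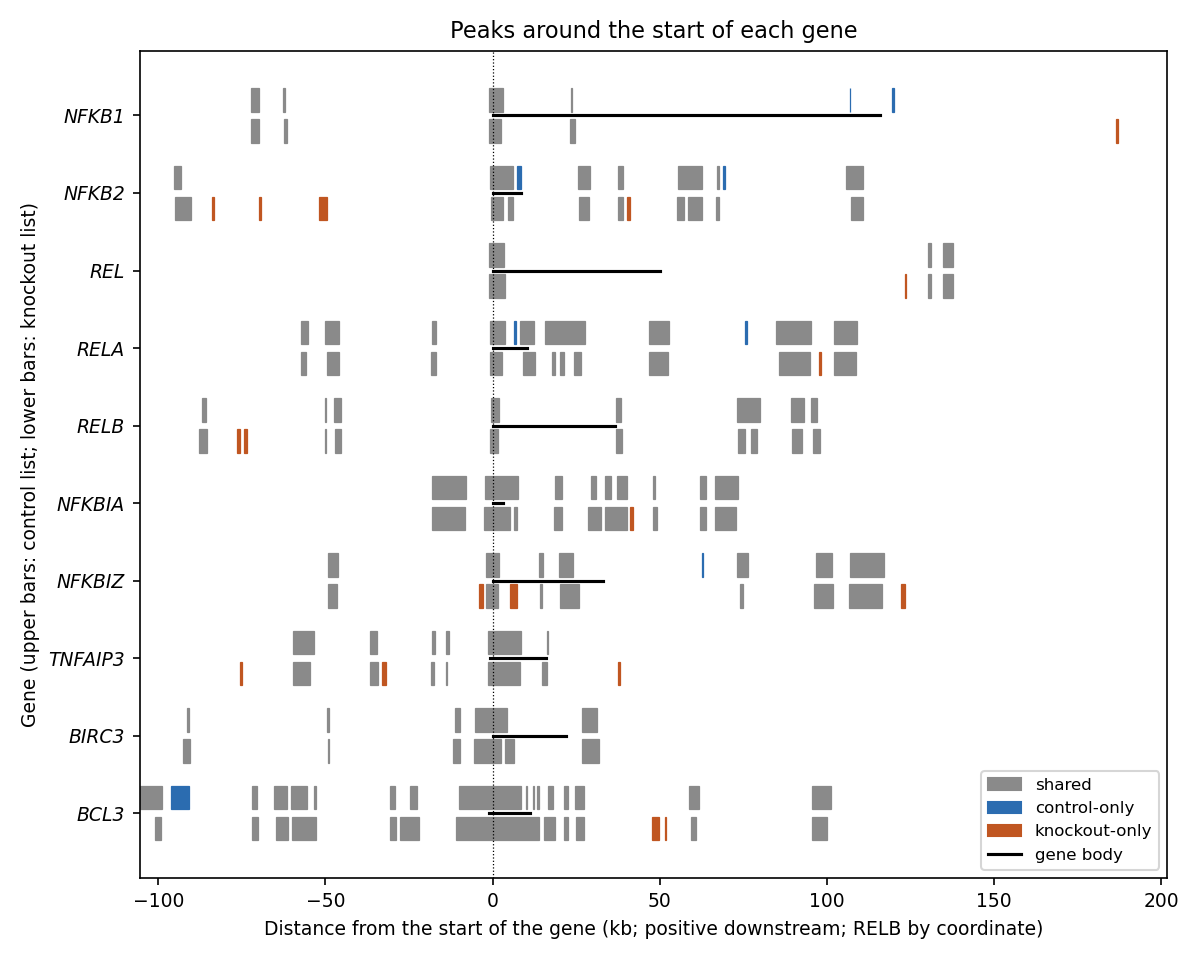
Position of each peak (bars, to scale, distance in kb from the start of the gene on the horizontal axis) in the control list (upper row of a gene) and the knockout list (lower row); grey bars are shared peaks, blue bars control-only and orange bars knockout-only, and black lines are gene bodies. The bars over position 0 are grey for all 10 genes, and the nearest genotype-only peak to a start ends 2.89 kb before that of NFKBIZ.

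The subunit genes held 6 control-only peaks of 37, 16.2% (exact interval 6.19 to 32.0), against 18% of all control peaks. They held 9 knockout-only peaks of 45, 20% (9.58 to 34.6), against 22.4% of all knockout peaks. Both intervals hold the share of all peaks. NFKB2 had the most of the 10 genes, with 4 knockout-only peaks of 13 and 2 control-only peaks of 9. Of the 4, 3 lay inside GBF1, a gene of Golgi traffic on the lower-coordinate side, at 0.333, 0.503 and 2.38 kb, the last also the highest (chr10:102342162-102344544, pileup 26.44, fold 3.40). The fourth lay between genes, 31.9 kb beyond NFKB2 (chr10:102434422-102435334, pileup 17.23, fold 4.22), with a control peak 1.30 kb away. The control-only peaks were one of 1.19 kb over the far end of NFKB2 itself (chr10:102401559-102402752, fold 3.44), which also touched PSD, and one of 0.657 kb in SLC68A1 (fold 3.59). The peak over the start of NFKB2 was a single stretch of 6.81 kb in control and 2 peaks of 3598 and 1252 bp in knockout.

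NFKB1 had few peaks for its length of 116 kb, 6 in control and 5 in knockout. Its 2 control-only peaks lay near the far end of the gene, 107 and 120 kb after the start, and were short (0.259 and 0.433 kb) and low (fold 2.59 and 2.68). Its knockout-only peak lay in MANBA, the neighbouring lysosomal mannosidase gene (chr4:102687998-102688557, 11.76, fold 3.58). At REL, 3 control peaks and 3 of 4 knockout peaks were shared, and the fourth knockout peak, 0.273 kb long, lay 73.4 kb away in PUS10 (pileup 29.70, fold 3.84). RELB had 8 control peaks, all shared, and 2 knockout-only peaks of 11, which lay between genes, 75.6 and 73.6 kb from RELB (chr19:44925044-44925816, fold 3.47, and chr19:44927087-44927866, fold 3.29).

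RELA lay in the second most heavily acetylated window of the 10 in control, with 53.0 kb in 11 peaks. Its control-only peaks were a weak one inside RELA (chr11:65656818-65657590, pileup 10.80, fold 2.43) and one in EHBP1L1 (0.526 kb, pileup 10.55), and its knockout-only peak was a weak one between genes (fold 2.34). A second peak inside RELA, over the end of the gene away from its start, was shared (4.21 kb and pileup 73.57 in control, 3.59 kb and 111.78 in knockout). One shared region near it was divided: 1 control peak of 11.8 kb over SIPA1, a regulator of Rap GTPases (chr11:65636241-65648049, 34.22), faced 3 knockout peaks of 2.04, 1.17 and 0.980 kb, with pileups of 104.52, 13.26 and 23.65.

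The inhibitor genes had no control-only peak among 20, which allows a share of up to 15% by the limit of 3 counts (exact 95% interval up to 16.8%), against 18% of all control peaks. They had 4 knockout-only peaks among 25, 16% (4.54 to 36.1), against 22.4% of all knockout peaks. Of these 4, 3 belonged to TNFAIP3, where all 6 control peaks were shared. They lay between genes, 74.2 and 31.0 kb before the gene and 21.5 kb beyond it: chr6:137791720-137792156 (pileup 20.52, fold 4.12), chr6:137834279-137835331 (12.73, fold 2.74) and chr6:137904784-137905460 (11.64, fold 2.79). The nearest control peaks were 15.5, 1.46 and 20.9 kb away. The strongest peak of TNFAIP3 away from its start was shared, a stretch 52.5 kb before the gene in control (6.26 kb and 54.88 in control, 5.07 kb and 60.82 in knockout). It was higher than the start peak in each list.

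At NFKBIA the acetylation spread over a long stretch on both sides of a short gene. The window held 38.2 kb of peaks in control (9 peaks) and 41.3 kb in knockout (10 peaks), 18.8% and 20.3% of its length, against a median of 5.20% and 5.18% over protein-coding genes. A shared peak of 10.3 kb in control and 9.79 kb in knockout lay 7.82 and 8.39 kb before the gene, in no protein-coding gene. Beyond the gene followed 7 further control peaks, all shared, the farthest 63.2 kb away. The single knockout-only peak (chr14:35362672-35363710, pileup 8.36, fold 2.73) was among the lowest 0.318% of its list by pileup and lay 0.838 kb from a control peak. BIRC3 had 5 control and 6 knockout peaks, all shared, among them the start peak of its neighbour and paralogue BIRC2 (chr11:102344149-102348804, 116.55 in control, and chr11:102344114-102349243, 159.32 in knockout).

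The nuclear IkB genes held 2 control-only peaks of 25, 8% (exact interval 0.984 to 26.0), against 18% of all control peaks. They held 5 knockout-only peaks of 24, 20.8% (7.13 to 42.2), against 22.4% of all knockout peaks. Here too both intervals hold the share of all peaks. NFKBIZ had 3 of the knockout-only peaks. One lay inside the gene, 6.18 kb after the start (chr3:101833181-101835154, 1.97 kb, pileup 26.07, fold 4.19), and was the only knockout-only peak inside any of the 10 genes. The others lay 2.89 kb before the gene in NXPE3 (fold 2.56, with a control peak at 0.937 kb) and 89.2 kb beyond it (fold 2.81). The highest peak of the NFKBIZ window was far from the gene and shared: it lay between genes 112 kb after the start, 10.1 kb long in control (chr3:101934974-101945103, 94.25) and 9.92 kb in knockout (chr3:101934567-101944490, 109.85). The control-only peak (0.261 kb, pileup 8.94) lay between this domain and the gene.

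BCL3 had the most acetylated window of the 10, 59.3 kb in control and 62.1 kb in knockout. The 24.8 kb knockout peak over the gene faced 4 control peaks, the long one of 18.5 kb and 3 of 0.348, 0.387 and 0.531 kb beyond it with pileups from 10.68 to 14.15. The 2 knockout-only peaks, both in the ubiquitin ligase gene CBLC, had the highest folds of all 18 (chr19:44796340-44798638, pileup 32.76, fold 4.53, and chr19:44800332-44800628, 20.95, fold 4.36). The control-only peak was the longest of the 8, 5.35 kb in PVR, the poliovirus receptor gene (chr19:44652661-44658005), with a pileup of 12.70 and a fold of 2.87. The control peak over the start of PVR, at the edge of the window, also overlapped a knockout peak whose near end lay 101 kb from BCL3 and so was not counted.

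The genotype-only peaks of these genes were weak within their own lists. The 8 control-only peaks had folds from 2.43 to 3.59 (median 2.79) and the 18 knockout-only peaks from 2.21 to 4.53 (median 3.34). Those of all control-only and knockout-only peaks had medians of 2.99 and 3.15, and the median of all peaks was 5.18 in control and 5.35 in knockout. None of either lay in the upper 50% of its list by fold, whereas 0.761% of all control peaks and 1.69% of all knockout peaks were genotype-only and in that upper part. Such peaks were rare in the whole lists too, so their absence here does not set these genes apart. The −log10 q of the control-only peaks reached 3.41 and that of the knockout-only peaks 13.4. These are not to be compared, since the median −log10 q of all peaks was 10.6 in control and 15.0 in knockout.

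**Figure D4:**
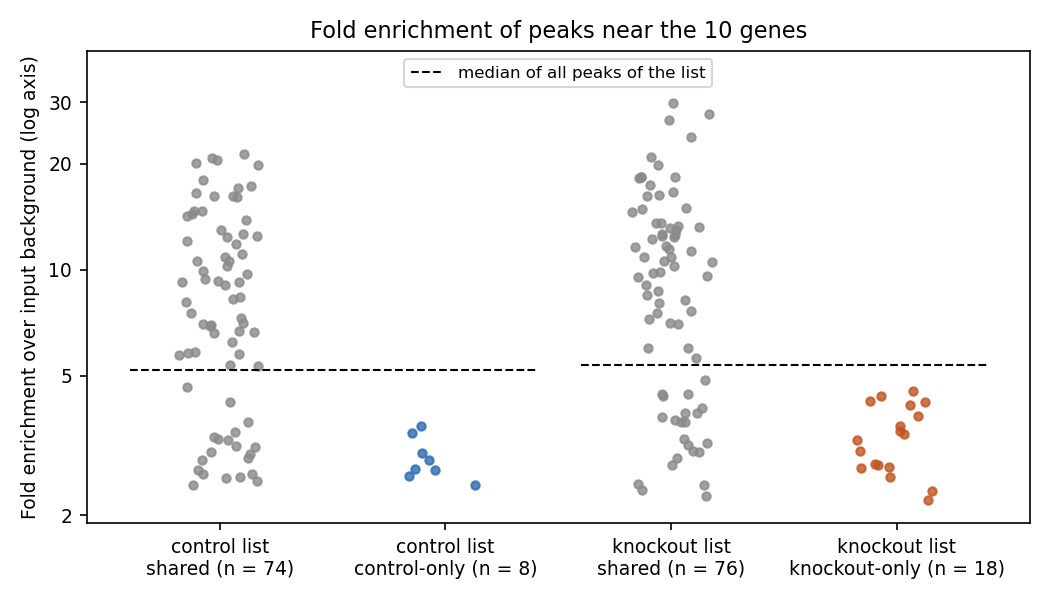
Fold enrichment (vertical axis, log scale, the authors' values) of each peak near the 10 genes, as points by list and class with random sideways scatter; dashed lines mark the median of all peaks of the list. The 8 control-only and 18 knockout-only points all lie under the line of their list, and the shared points lie on both sides of it.

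The total acetylated length near the 10 genes was nearly equal, 283.9 kb in control and 285.7 kb in knockout. The knockout length was the larger at 8 genes, by a factor of at most 1.20 (BIRC3), and the control length at NFKB2 and RELA. RELA alone differed by at least 25%, with 53.0 kb in control and 39.8 kb in knockout, a ratio of 1.33; over protein-coding genes 26.6% had a control length at least 25% above the knockout length and 16.5% the reverse. The mean pileup of the RELA peaks behind these sums was 71.2 in control and 126.6 in knockout, each on the scale of its own list and not to be compared. Without the SIPA1 region, where the peaks were split, the RELA values were 41.2 and 35.7 kb. Over all genes the median ratio of knockout to control length was 0.938, and over the 10 it was 1.06.

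**Figure D5:**
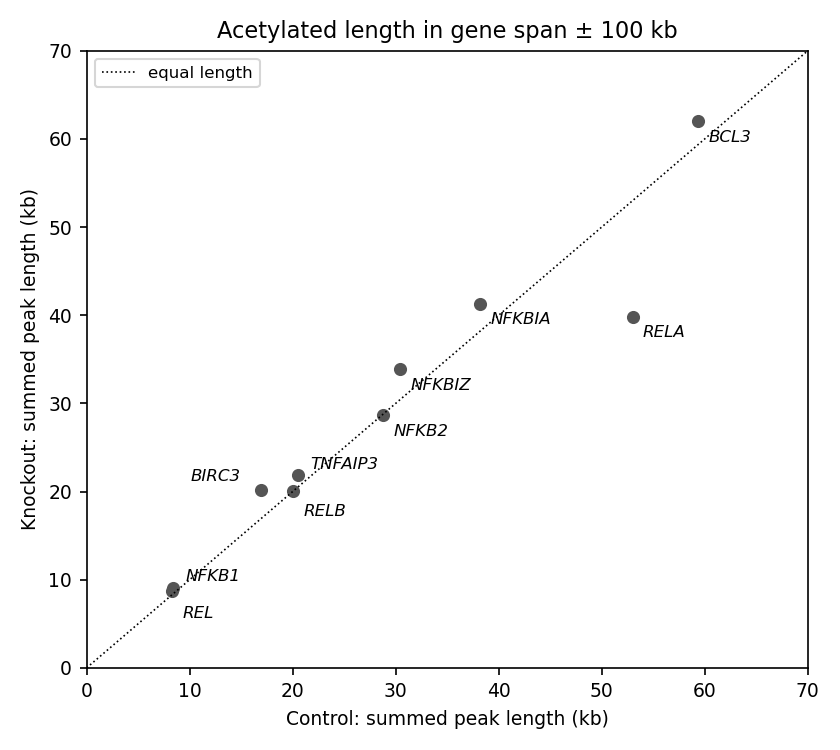
Summed peak length in kb within each gene span and 100 kb either side, control list on the horizontal axis and knockout list on the vertical axis, 1 point per gene; the dotted line marks equal lengths. RELA lies under the line at 53.0 and 39.8 kb, and the other points lie close to it.

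Shared regions were cut into peaks in different ways. Of the 69, 59 had 1 peak in each list, 7 had 1 control peak facing several knockout peaks, and 3 the reverse. The summed length was larger in control at 38 of these regions and in knockout at 31. Between genes, meaning in no protein-coding gene, lay 33 control peaks (2 of them control-only) and 37 knockout peaks (9 knockout-only). Inside neighbouring genes, away from any start, lay 3 control-only peaks of 11 and 8 knockout-only peaks of 21. Inside the 10 genes themselves, away from their starts, lay 3 control-only peaks of 8 (in NFKB1, NFKB2 and RELA) and 1 knockout-only peak of 8 (in NFKBIZ). Over all peaks away from starts, whatever the place, 22.4% in control and 27.6% in knockout were genotype-only, and counts this small give no order of the places.

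The rest of the pathway was described with the same rule over 56 other genes and 449 control and 474 knockout peaks, of which 61 (13.6%, exact 95% interval 10.6 to 17.1) were control-only and 77 (16.2%, 13.0 to 19.9) knockout-only, against 18% and 22.4% of all peaks. The 8 receptor genes, which receive TNF, IL-1, lymphotoxin and microbial signals, had 2 control-only peaks of 52 (3.85%, 0.469 to 13.2) and 11 knockout-only of 62 (17.7%, 9.20 to 29.5). The highest fold among the knockout-only peaks lay in the window of TNFRSF1B, a TNF receptor gene, but closest to its neighbour TNFRSF8 (chr1:12131508-12133758, fold 8.39). The 20 adaptor and kinase genes, which link receptors to IKK, were nearly even, with 28 of 175 (16%, 10.9 to 22.3) and 25 of 173 (14.5%, 9.58 to 20.6); the next strongest knockout-only peak (fold 5.64) was near TRAF5, and one in the window of IL1R1, the signalling IL-1 receptor gene, but closest to IL1R2, followed (5.22). The 12 genes of other IkB proteins and ubiquitin-related regulators had 22 control-only peaks of 104 (21.2%, 13.8 to 30.3). They had 5 knockout-only peaks of 98 (5.102%, 1.68 to 11.5), against 22.4% of all knockout peaks. The group is mixed and does not stand for inhibitors alone. It holds RNF31, RBCK1 and SHARPIN, whose linear ubiquitin ligase promotes signalling, and BIRC2. Of the 22, 8 lay in the window of RBCK1, a subunit gene of the linear ubiquitin ligase, and 6 in that of NFKBIB, which encodes IkB-beta and had the control-only peak with the highest fold (4.89, closest to FBXO17). The next was in the window of OTULIN (4.28, closest to ANKH). The 16 target genes had 9 control-only peaks of 118 (7.63%, 3.55 to 14.0), against 18% of all control peaks. They had 36 knockout-only peaks of 141, a share of 25.5% (18.6 to 33.6) near the 22.4% of all knockout peaks. The intervals of all 56 genes together lay under the share of all peaks in both lists. So did those of the receptor and target genes in control. In knockout, those of the adaptor and kinase genes and of the mixed group did. Against the 17.4% and 20.5% of peaks within 100 kb of a protein-coding gene, the adaptor and kinase interval did not. Neighbouring genes share a chromosomal region, so these peaks are not independent, and the intervals cover counting error only. Of the 36, 6 were near CCL20 and 4, 3, 1 and 3 near the neighbouring chemokine genes CXCL1, CXCL2, CXCL3 and CXCL8; 5 of the 9 were near SOD2. The 10 genes described here, with 8 of 82 and 18 of 94, lay between this mixed group and the target genes in the knockout share. The receptor genes and the adaptor and kinase genes did so too, so this place is not particular to the 10. No difference between these groups was tested. Starts were covered in both lists for 41 of the 48 genes in the promoter table, in 1 list for 3 (TLR2, TNIP1 and PTGS2, each in knockout) and in neither for 4.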

How the data were processed

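The authors reduced the H3K27ac libraries to 1 peak list per genotype, called on the immunoprecipitate against its input. Per the submitters' processing notes, the tools were Bowtie2 2.3.5.1 (alignment) and MACS2 2.2.6 (peak calling) and the build was hg38. Options, depth and the pooling of replicates are not given in the sources used here; peak names begin with A-1 in the control and B-2 in the knockout list, with no explanation. Per the file headers, the authors deposited for each peak its length, pileup (a coverage signal), −log10 p-value (not used), fold enrichment (a ratio) and −log10 q-value; whether pileup is a summit or a mean is not stated. The lowest deposited −log10 q was 1.01 and 1.00.

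The analysis kept chromosomes 1 to 22 and X, with gene spans and promoters from RefSeq (GRCh38.p14). Protein-coding starts came from the promoter table, with no distinction of exons from introns. Overlaps were computed in Python 3.11.15 with pandas 2.3.3 and numpy 2.4.6, tested on simulated lists and recounted with bedtools 2.31.1; intervals are exact binomial (scipy 1.17.1), and figures were drawn with matplotlib 3.10.9. All 10 genes are named; other pathway genes are named by the highest fold among genotype-only peaks, up to 3 per list, and the others by their counts, after these were seen. The genes and lists were chosen with earlier results of these data known, and the 25% difference in length after the lengths were seen. One marker gene of the cell type check and one pathway peak named by this rule are not reported here.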

Additional observations from a re-analysis of the deposited data

How the results depend on the processing

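No paired analysis was possible because each genotype had 1 peak list, and for the same reason no replicate could be left out. Depth is not given, so a peak missing from a list may lie under its threshold. Requiring 50% of the shorter peak to overlap gave 9 control-only and 20 knockout-only peaks near the 10 genes, and also sharing peaks within 1 kb gave 8 and 16. With a −log10 q of at least 5 they were 1 of 58 (1.72%) and 15 of 75 (20%), against 10.2% and 23.2% of all peaks at that limit, and 16 control-only peaks in the pathway list; that limit removed all 8 control-only peaks and left 9 of the 18 knockout-only peaks, and the 1 and 6 added ones had lost a weak partner. That limit kept 26745 of 39797 control peaks and 31598 of 42552 knockout peaks, so it acted unequally on the 2 lists. Counting only the upper 50% by fold gave 0 and 0, and 0 and 2 in the pathway list. Windows of 50 kb gave 5 and 9 of 54 and 60 peaks (182.2 and 185.0 kb), and 38 control-only pathway peaks. Windows of 10 kb gave 4 and 2, so that control-only peaks were the more numerous, and 21 and 25 in the pathway list. Windows of 250 kb gave 20 and 31, and 137 and 145. No share over all peaks was computed for these other window widths, so their counts have no background beside them. Peaks whose nearest protein-coding gene was 1 of the 10 numbered 40 and 40 (142.9 and 153.6 kb), of which 5 were control-only and 6 knockout-only. In all, 27 recomputed values moved by more than a fixed factor and 16 did not. Many of those that moved are counts or lengths in windows of another width, which change with the width. The tally is therefore no measure of robustness. That the 10 starts stayed covered at a −log10 q of at least 5 was checked after the data were seen.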
